A study of Mus musculus with 10 samples.

Results

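Osteoclasts, the cells that resorb bone, form from myeloid precursors under the control of signals made largely by osteoblastic and stromal cells. The genes for such signals followed here, 8 in all and chosen by symbol, were the cytokine genes Tnfsf11, Tnfrsf11b, Csf1 and Il34, the semaphorin genes Sema3a and Sema3e, the ephrin gene Efnb2 and its receptor gene Ephb4. All 8 of 8 were found among the 19938 genes measured, each by 1 probe set, and none by a further probe set annotated to several genes. RNA came from osteoblastic lineage cells (OBCs) of 5 control mice and 5 Scl-tTA::TRE-BCR/ABL (BA) mice, all C57BL/6, with 1 mouse on each Affymetrix Gene ST 1.0 array. In BA mice the BCR/ABL oncogene is switched on by a transactivator from the Scl promoter, known for its activity in blood stem and progenitor cells, once doxycycline is withdrawn. For the age-matched controls the labels name no genotype. Mice of both groups were taken off doxycycline at 5 weeks of age and their bones were harvested 5 to 6 weeks later, when BA mice were diseased with a myeloproliferative neoplasm. OBCs were released from crushed bone with collagenase, sorted after staining for CD31, CD45, CD51, Sca-1 and lineage antigens, and 500 to 2300 of them gave the RNA that was amplified. The question is whether OBCs from leukemic marrow carry a different set of osteoclast-regulating signals than OBCs from normal marrow.

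Tnfsf11 encodes RANKL, the ligand that drives osteoclast precursors to mature through the receptor RANK (Tnfrsf11a). Tnfrsf11b encodes osteoprotegerin, a secreted decoy that binds RANKL and blocks it. Csf1 (M-CSF) and Il34 encode cytokines that share the receptor CSF1R, which keeps osteoclast precursors alive. Sema3a, which acts through neuropilin 1 and A-type plexins, is known as a brake on osteoclast formation and a support of bone formation, while Sema3e signals through plexin D1. Ephrin B2, a membrane protein of osteoclasts and osteoblasts, and its receptor EphB4 on osteoblasts signal in both directions, and in vessels the same pair marks arteries and veins.

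None of the 8 genes differed between BA and control OBCs past an adjusted p of 0.05 in limma, a linear model fitted gene by gene that borrows the spread from other genes (Benjamini-Hochberg adjustment, all genes). The same test called 1 gene of all 19938 (0.00502%). Csf1, Il34 and Sema3e had lower means in BA cells by 0.53 to 0.76 on the log2 scale, Efnb2 had a higher mean by 0.55, and Tnfsf11, Tnfrsf11b, Sema3a and Ephb4 differed by 0.22 or less in size. Means were higher in BA cells for 4 of the 8 genes and lower for 4, with a median difference of -0.09, beside 7560 higher, 12378 lower and a median of -0.06 over all genes. At an unadjusted p under 0.05 there was 1 of 8, Sema3e, lower in BA cells, where 9.4% of all genes met that rule, 5.27% lower and 4.13% higher. For 0 of 8 genes did the groups not overlap, against 1.67% of all genes. One such gene in 8 is near that background, and the values below are given as measurements.

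**Figure D1:**
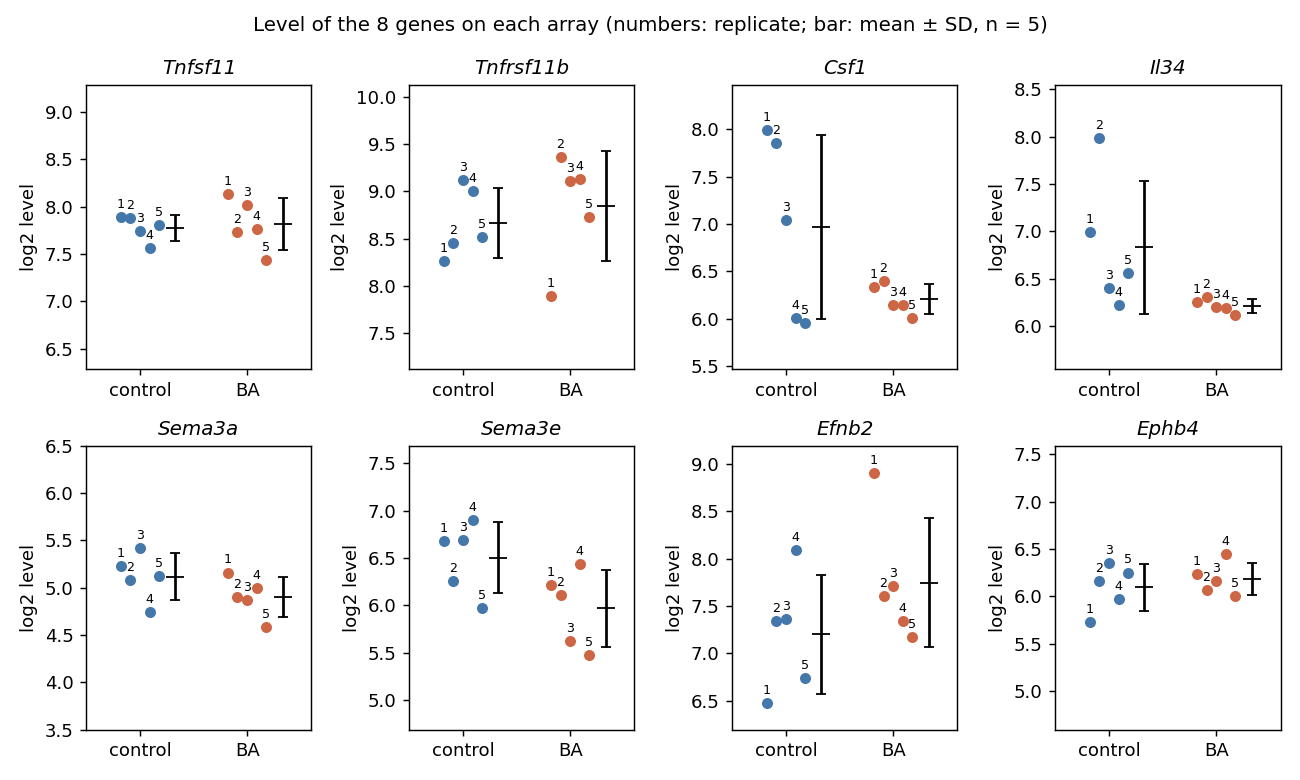
Log2 level (vertical axis, each panel spanning 3 log2 units) of the 8 genes on the 5 control and 5 BA arrays, with the replicate number at each point and the mean ± SD beside each group. The groups overlap in every panel; the control arrays spread widely for Csf1 (5.95 to 7.99) and Il34 (6.22 to 7.98), while the BA arrays lie close together at 6.01 to 6.40 and 6.11 to 6.30.

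The sorted cells carried transcripts of bone and of cartilage. The bone collagen gene Col1a1 lay between 10.08 and 10.89 in control and between 8.36 and 10.20 in BA cells. Over the 7 measured osteoblast genes, the BA minus control difference was -1.25 for Col1a1, -1.16 for Col1a2 and -0.58 for Ifitm5. It was 0.47 for Alpl, 0.03 for Sp7, -0.01 for Ibsp and -0.11 for Sparc, and none of these 7 passed. For Col1a2 and Ifitm5 all 5 BA arrays lay below all 5 control arrays, as in 1.1% of all genes. Sox9, the regulator of cartilage, lay between 11.07 and 11.49 and between 11.35 and 11.52. Ptprc (CD45) stood at 9.29 on BA replicate 5 and between 5.54 and 5.90 on the other 9 arrays, and Pecam1 (CD31) at 6.94 on control replicate 5 and between 5.46 and 5.99 on the other 9. The mean of 8 pan-haematopoietic markers was 8.95 on BA replicate 5, between 6.64 and 7.09 on the other BA arrays and between 6.22 and 7.39 in control. The means of 10 marrow stroma markers, such as Lepr and Cxcl12, ranged from 7.55 to 9.70 in control and from 6.62 to 8.34 in BA cells. At an unadjusted p under 0.05, 3 of 7 osteoblast markers had lower and 1 of 8 pan-haematopoietic markers a higher level in BA cells. By that rule 5.27% of all genes were lower and 4.13% higher. Of the chondrocyte and macrophage markers 0 of 10 and 0 of 8 met it, and none of these markers passed over all genes. In a sorted population, fewer cells of a type and less RNA per cell cannot be told apart. The number of arrays limits the precision of every comparison, and levels of different genes on an array are not comparable in absolute terms.

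The RANKL gene was measured at nearly the same level in both groups. Tnfsf11 stood at 7.89, 7.88, 7.74, 7.56 and 7.81 in control replicates 1 to 5 and at 8.13, 7.73, 8.02, 7.76 and 7.44 in BA replicates 1 to 5. BA replicates 1 and 3 lay above every control array and BA replicate 5 below every one, so the BA values bracketed the control values. The means were 7.78 ± 0.14 in control and 7.82 ± 0.27 in BA cells (SD, n = 5 each), a difference of 0.04 ± 0.14 (SE, limma adjusted p = 0.919). The 95% interval of the difference ran from -0.26 to 0.34, so that a BA level more than 1.27-fold higher or 1.20-fold lower lay outside it. Its sign turned when arrays were quantile normalized (-0.062). Activated lymphocytes also make RANKL. The 7 measured T and B cell markers averaged 5.49 to 5.85 on control and 5.45 to 5.64 on BA arrays, and 0 of 7 had an unadjusted p under 0.05.

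Osteoprotegerin varied more between mice than between groups. Tnfrsf11b stood at 8.26, 8.45, 9.12, 9.00 and 8.52 in control replicates 1 to 5 and at 7.89, 9.36, 9.11, 9.13 and 8.73 in BA replicates 1 to 5. BA replicate 1 was the lowest of the 10 arrays and BA replicate 2 the highest, and 4 of 5 BA arrays lay above the control mean. The means were 8.67 ± 0.37 and 8.84 ± 0.58 (SD, n = 5 each). The difference was 0.17 ± 0.28 (SE, limma adjusted p = 0.813), with a 95% interval from -0.45 to 0.79. Without BA replicate 1 it was 0.41 (unadjusted p = 0.0741), and without BA replicate 2 it was 0.04, so these single mice moved the estimate by over 1.5 times.

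The balance of RANKL to its decoy was followed within each array as the log2 level of Tnfsf11 minus that of Tnfrsf11b, which is compared between arrays only because the probes differ. It was -0.37, -0.57, -1.38, -1.44 and -0.71 in control replicates 1 to 5 and 0.24, -1.63, -1.09, -1.37 and -1.29 in BA replicates 1 to 5. BA replicate 1, with the highest Tnfsf11 and the lowest Tnfrsf11b, lay above all other arrays. The other 4 BA arrays lay between -1.63 and -1.09, a range that also held control replicates 3 and 4. Group means were -0.89 ± 0.49 and -1.03 ± 0.73 (SD, n = 5 each), a difference of -0.13 that was smaller than either SD. Without BA replicate 1 the difference was -0.45, and without BA replicate 2 it was 0.02.

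**Figure D2:**
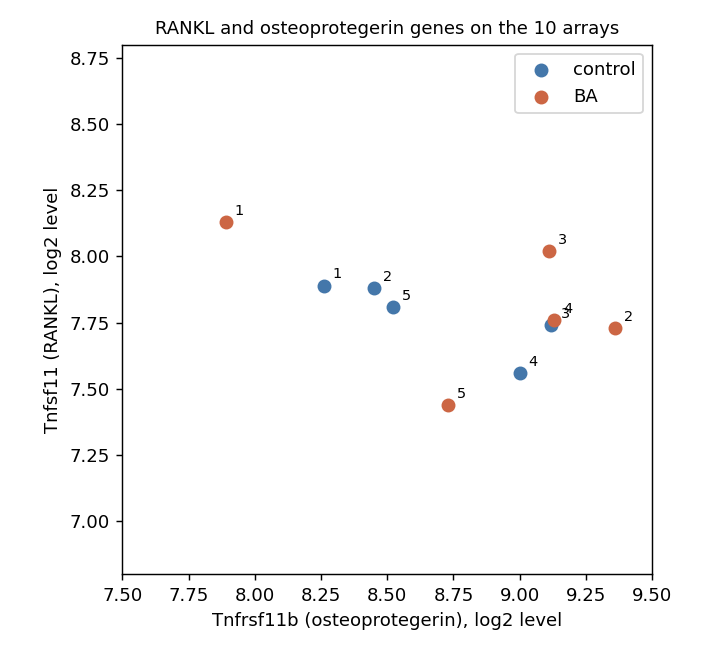
Log2 level of Tnfsf11 (vertical axis) against that of Tnfrsf11b (horizontal axis) for the 5 control and 5 BA arrays, numbered by replicate, with both axes spanning the same number of log2 units. The points of both groups are mixed, and BA replicate 1 (7.89 for Tnfrsf11b and 8.13 for Tnfsf11) sits alone at the upper left.

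The receptor side of this pathway was measured in the same cells. RANK (Tnfrsf11a) averaged 6.61 ± 0.14 in control and 6.50 ± 0.11 in BA cells (SD, n = 5 each), with overlapping ranges of 6.49 to 6.84 and 6.36 to 6.67. Lgr4, known as a further receptor for RANKL and as a receptor for R-spondins, stood at 6.38, 5.90, 6.19, 6.37 and 5.18 in control and at 6.96, 6.90, 6.86, 8.50 and 7.57 in BA replicates 1 to 5. All 5 BA arrays lay above all 5 control arrays, which held for 0.567% of all genes, and BA replicate 4 was the highest. The difference was 1.35 ± 0.35 (SE) and did not pass over all genes (limma adjusted p = 0.384).

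Both genes for ligands of the CSF1 receptor had lower means and a much narrower spread in BA cells. The BA values, 6.01 to 6.40 for Csf1 and 6.11 to 6.30 for Il34, lay near the median of all genes on the BA arrays (6.04 to 6.14). Without detection calls, how far these values stood over background is unknown. Csf1 stood at 7.99, 7.86, 7.04, 6.01 and 5.95 in control replicates 1 to 5 and at 6.34, 6.40, 6.14, 6.14 and 6.01 in BA replicates 1 to 5. Control replicates 1, 2 and 3 lay above every BA array, while control replicates 4 and 5 lay at or below the lowest BA array. The means were 6.97 ± 0.97 and 6.21 ± 0.16 (SD, n = 5 each), a difference of -0.76 ± 0.39 (SE, limma adjusted p = 0.543) with a 95% interval from -1.64 to 0.11. All 5 BA arrays lay below the control mean. The estimate was -0.51 without control replicate 1 and -1.02 without control replicate 5.

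Il34 stood at 6.99, 7.98, 6.40, 6.22 and 6.56 in control replicates 1 to 5 and at 6.25, 6.30, 6.20, 6.19 and 6.11 in BA replicates 1 to 5. Of the control arrays, 4 lay above every BA array, and control replicate 4 lay within the BA range. The means were 6.83 ± 0.70 and 6.21 ± 0.07 (SD, n = 5 each), a difference of -0.62 ± 0.29 (SE, limma adjusted p = 0.533) with a 95% interval from -1.26 to 0.02. Control replicate 2 carried much of it: without that array the difference was -0.33 (unadjusted p = 0.0531). Without control replicate 4, the only control array within that range, the groups could no longer overlap. In that setting 663 of 19938 genes did not overlap, against 333 with all arrays. The Il34 difference was then -0.77, with a limma adjusted p of 0.438.

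The control mice with high Csf1 were also those with high levels of marrow stroma markers. The mean of these 10 markers was 9.70, 9.70, 8.91, 7.71 and 7.55 in control replicates 1 to 5, and 8.34, 7.02, 7.65, 7.71 and 6.62 in BA replicates 1 to 5. Lepr, the leptin receptor of perivascular stroma, stood at 10.13, 10.63, 9.60, 8.22 and 8.28 in the control replicates, in which replicates 1, 2 and 3 again stood above replicates 4 and 5. All 10 of these markers had lower means in BA cells, as did 62.1% of all genes. At an unadjusted p under 0.05, 4 of them were lower, against 5.27% of all genes, and none passed over all genes. The part of these cells in the Csf1 and Il34 values was not tested.

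**Figure D3:**
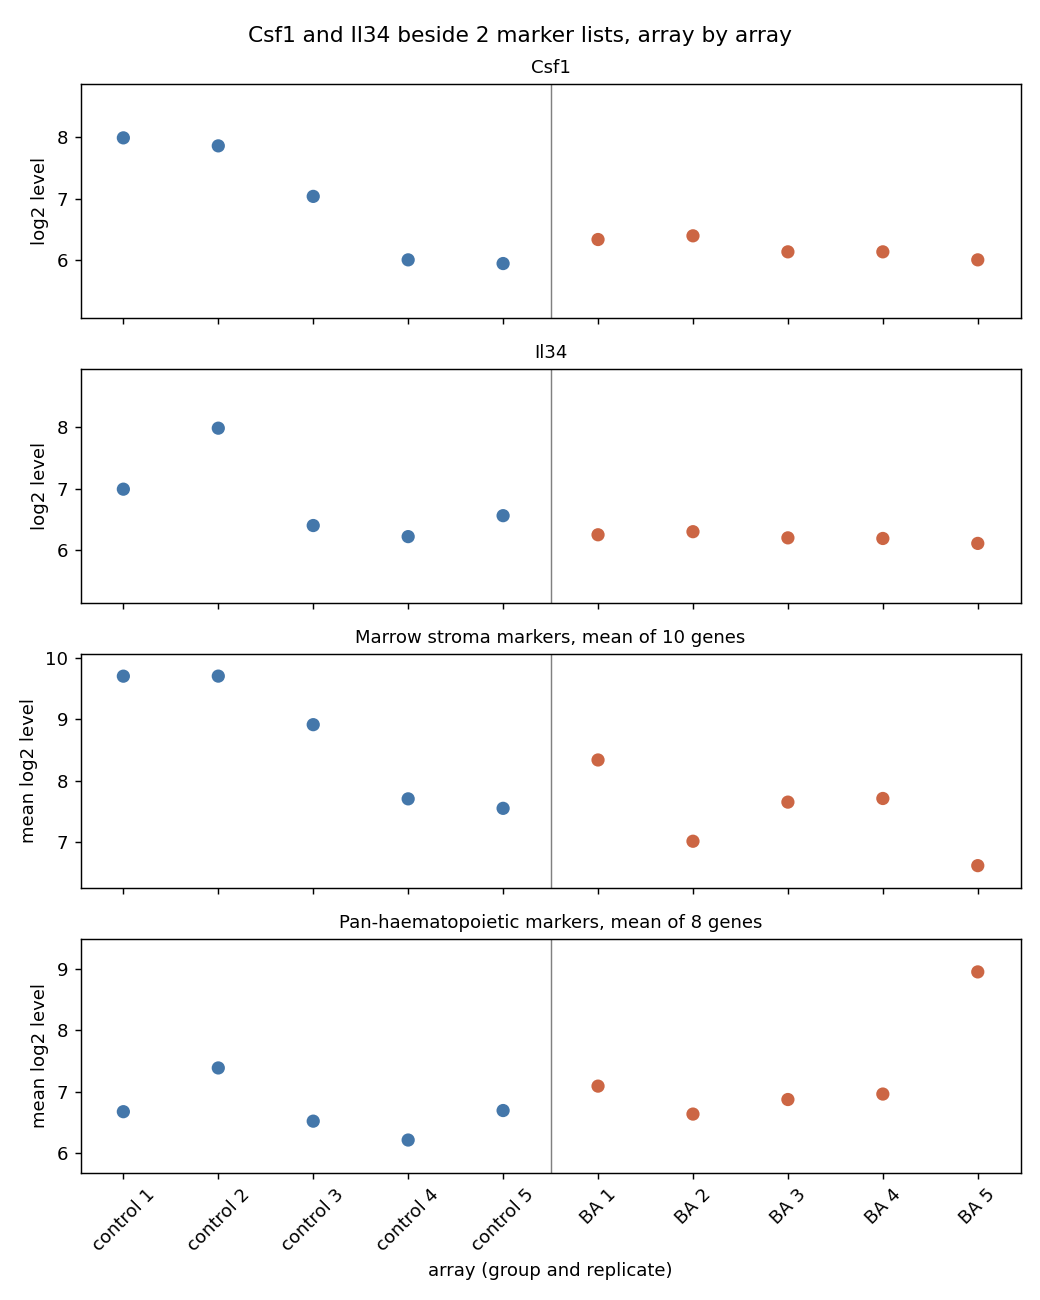
Log2 levels of Csf1 and Il34, and the mean log2 levels of 10 marrow stroma markers and of 8 pan-haematopoietic markers (vertical axes, each panel spanning the same number of log2 units), for each of the 10 arrays along the horizontal axis. Control replicates 1 to 3 are high for Csf1 (7.04 to 7.99) and for the stroma markers (8.91 to 9.70), and BA replicate 5 stands apart in the haematopoietic panel at 8.95.

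The same control replicates, 1 to 3, had low Xist, which is transcribed from the silenced X of female cells (4.67 to 5.08), and control replicates 4 and 5 had high Xist (10.44 and 9.81). By Xist, 3 control and 2 BA arrays were low and 2 control and 3 BA arrays high, so each group held males and females by this measure. Csf1 differed by -1.39 between BA and control within the low-Xist arrays and by 0.20 within the high-Xist arrays. A difference between these values of 1.59 ± 0.39 (SE) had an unadjusted limma p of 0.0031 and an adjusted p of 0.999, where 3.35% of all genes had an unadjusted p under 0.05 in that test. It was computed after the Csf1 values had been seen. For Il34 the values were -0.90 within low-Xist and -0.19 within high-Xist arrays. For Efnb2 they were 1.25 and -0.04, for Tnfsf11 0.24 and -0.04, and for Tnfrsf11b -0.11 and 0.31. None of these differences passed either (unadjusted p between 0.0939 and 0.473). In the control group, Xist class and stroma marker level cannot be told apart, since both separate the same arrays.

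The receptor gene shared by both cytokines, Csf1r, lay between 5.11 and 5.39 in control and between 5.24 and 5.90 in BA cells, with the highest value on BA replicate 5, the array with high haematopoietic markers. Its difference of 0.22 ± 0.14 (SE) did not pass (limma adjusted p = 0.59). Ptprz1, known as a further receptor for IL-34, averaged 5.48 ± 0.69 and 4.55 ± 0.57 (SD, n = 5 each), and the difference of -0.93 had an unadjusted limma p of 0.0268 and an adjusted p of 0.502. Syndecan 1 (Sdc1), which also binds IL-34, averaged 6.95 and 7.01.

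Of the semaphorin genes, Sema3e was the member with the smallest p. It stood at 6.68, 6.26, 6.69, 6.90 and 5.97 in control replicates 1 to 5 and at 6.21, 6.11, 5.62, 6.43 and 5.47 in BA replicates 1 to 5. All 5 BA arrays lay below the control mean and 2 of them, replicates 3 and 5, below every control array, but 3 overlapped the control range. The means were 6.50 ± 0.38 and 5.97 ± 0.41 (SD, n = 5 each), a 1.45-fold lower level in BA cells. The difference of -0.53 ± 0.23 (SE) had a 95% interval from -1.04 to -0.02, an unadjusted limma p of 0.0414 and an adjusted p of 0.512, and 8.09% of all genes had a smaller p. It was lowest on BA replicate 5, and without that array the difference was -0.41 (unadjusted p = 0.101).

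Sema3a lies near Sema3e, with 3 protein-coding genes between them in assembly GRCm38.p6. Its level stood at 5.23, 5.08, 5.42, 4.74 and 5.12 in control replicates 1 to 5. In BA replicates 1 to 5 it stood at 5.16, 4.90, 4.87, 5.00 and 4.58. The ranges overlapped for 4 of the 5 BA arrays, with BA replicate 5 below all control arrays. The means were 5.12 ± 0.25 and 4.90 ± 0.21 (SD, n = 5 each), a difference of -0.22 ± 0.15 (SE, limma adjusted p = 0.594) with a 95% interval from -0.54 to 0.11. On every array Sema3a lay below the median of all genes, which was 6.04 to 6.17. Without detection calls, how far it stood over background is unknown.

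Among the 12 receptor and co-receptor genes, the groups did not overlap for Lgr4, given above, and for the plexin A2 gene. Plxna2, a plexin of the class that carries Sema3a signals, stood at 8.29, 7.01, 7.47, 6.94 and 6.92 in control and at 6.70, 6.43, 6.18, 6.45 and 6.05 in BA replicates 1 to 5. All 5 BA arrays lay below all 5 control arrays, as in 1.1% of all genes. The difference was -0.96 ± 0.26 (SE) and did not pass over all genes (limma adjusted p = 0.399). The neuropilin gene Nrp1, whose product binds Sema3a, averaged 7.95 ± 0.69 in control and 7.30 ± 0.39 in BA cells, and control replicates 1 and 2 were the highest at 8.79 and 8.59. The Sema3e receptor gene Plxnd1 averaged 6.58 ± 0.34 and 6.25 ± 0.14 (SD, n = 5 each), again highest on control replicates 1 and 2 (6.97 and 6.83). Plxna1, Plxna3, Plxna4 and Nrp2 differed by 0.12 or less in size. Of all 12 receptors and co-receptors, 1 had a higher and 2 a lower level in BA cells at an unadjusted p under 0.05 (background 4.13% and 5.27%). None passed over all genes, and the median difference was -0.06.

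**Figure D4:**
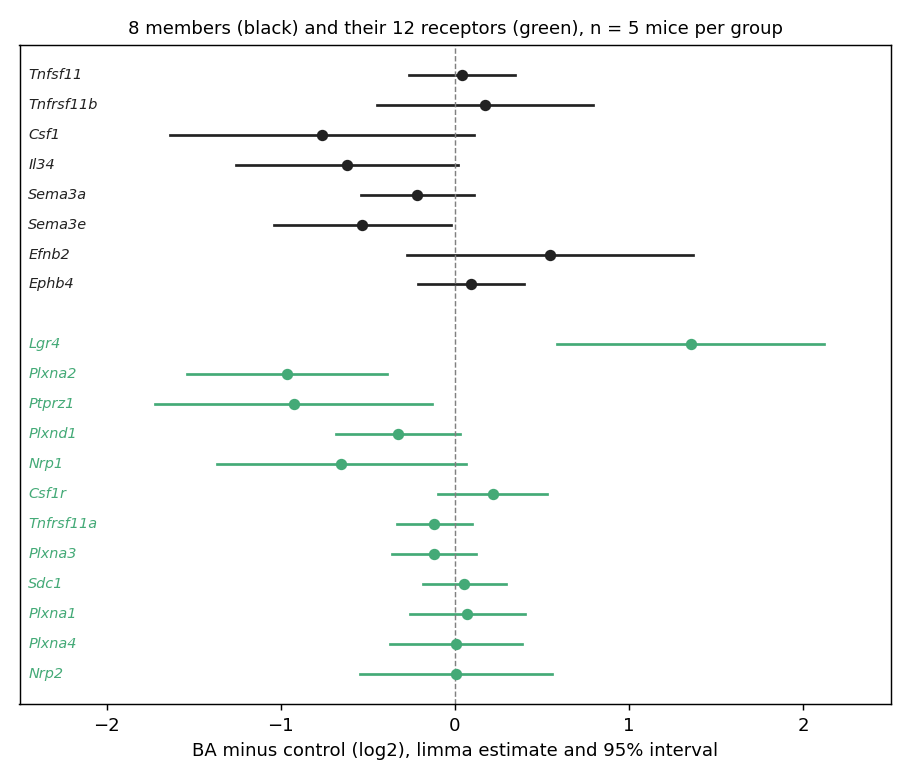
BA minus control on the log2 scale (horizontal axis) with the 95% interval from limma for the 8 members (black) and their 12 receptors and co-receptors (green), each on a line of its own, from 5 mice per group. Of the members only the Sema3e interval (-1.04 to -0.02) leaves out 0, and of the receptors those of Lgr4, Plxna2 and Ptprz1 do; these intervals are not adjusted for the number of genes.

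Of 18 other semaphorin genes, 7 had higher and 11 lower means in BA cells, with a median difference of -0.10. At an unadjusted p under 0.05, 1 was higher and 0 lower (background 4.13% and 5.27%), and none passed over all genes. Sema6a averaged 6.35 ± 0.29 in control and 6.96 ± 0.52 in BA cells (SD, n = 5 each, limma adjusted p = 0.507). Sema6d averaged 8.37 ± 1.29 and 7.02 ± 1.02 (limma adjusted p = 0.534). It stood at 9.71, 8.84 and 9.30 in control replicates 1 to 3 and at 6.96 and 7.03 in replicates 4 and 5, the split seen for Csf1. Sema5b differed by -0.20 ± 0.11 (SE).

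Ephrin B2 had a higher mean in BA cells, carried largely by 1 mouse. Efnb2 stood at 6.48, 7.34, 7.36, 8.09 and 6.74 in control replicates 1 to 5 and at 8.91, 7.61, 7.71, 7.34 and 7.17 in BA replicates 1 to 5. Only BA replicate 1 lay above all control arrays, and the other 4 lay within the control range. The means were 7.20 ± 0.63 and 7.75 ± 0.68 (SD, n = 5 each). The difference was 0.55 ± 0.37 (SE, limma adjusted p = 0.594), with a 95% interval from -0.28 to 1.37. Without BA replicate 1 it was 0.26. BA replicate 1 was thus the array with the highest Efnb2 and Tnfsf11 and the lowest Tnfrsf11b of the 10.

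Its receptor gene Ephb4 was the member with the closest means after Tnfsf11. It stood at 5.73, 6.16, 6.35, 5.97 and 6.25 in control replicates 1 to 5 and at 6.23, 6.07, 6.16, 6.45 and 6.00 in BA replicates 1 to 5, with 4 of 5 BA arrays inside the control range. The means were 6.09 ± 0.25 and 6.18 ± 0.17 (SD, n = 5 each), a difference of 0.09 ± 0.14 (SE, limma adjusted p = 0.802) with a 95% interval from -0.21 to 0.39. Both genes also mark vessels. The mean of 12 endothelial markers ranged from 5.54 to 5.91 in control and from 5.46 to 5.72 in BA cells. Of these, 0 of 12 had an unadjusted p under 0.05, where 9.4% of all genes did. The highest endothelial mean was on control replicate 5, where Efnb2 was at 6.74, and BA replicate 1 had 5.72.

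Of 19 other ephrin and Eph receptor genes, 5 had higher and 14 lower means in BA cells (median -0.10). None passed over all genes, and at an unadjusted p under 0.05 there were 0 higher and 1 lower (background 4.13% and 5.27%). That gene was Efna5, at 6.41, 8.81, 7.94, 7.38 and 7.35 in control and between 6.47 and 6.69 in BA cells, a difference of -1.01 ± 0.35 (SE, limma adjusted p = 0.484). Control replicate 1 lay below the BA arrays and the other 4 control arrays above them. As for Csf1 and Il34, the SD was wide in control (0.88) and narrow in BA cells (0.08). Efna2 and Epha10 differed by -0.17 ± 0.14 and -0.12 ± 0.11 (SE).

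**Figure D5:**
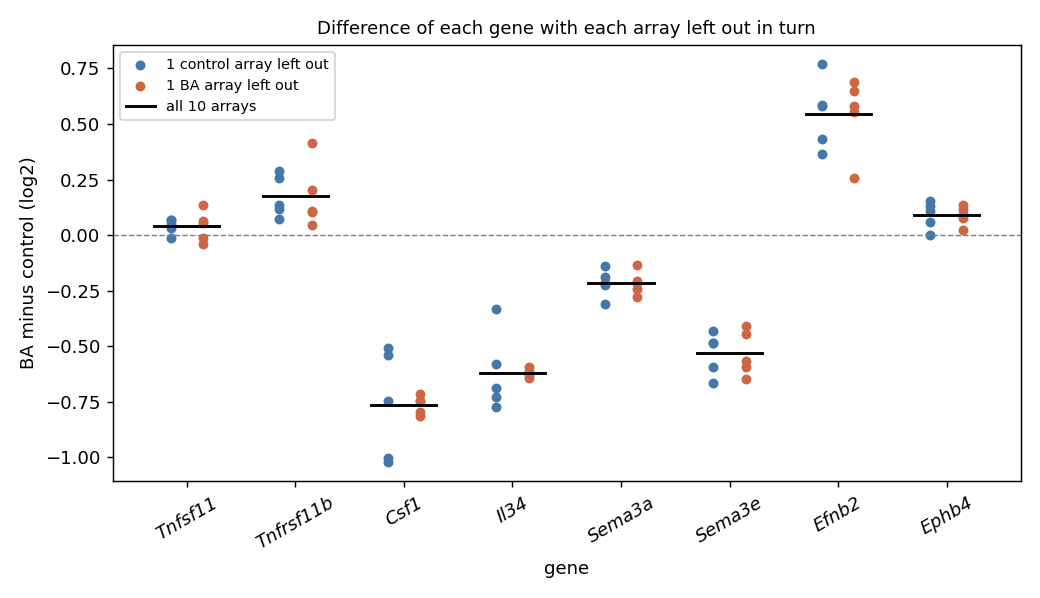
BA minus control on the log2 scale (vertical axis) for each of the 8 genes (horizontal axis) with all 10 arrays (black line) and with each control array (blue) or BA array (orange) left out in turn. The estimates for Csf1, Il34, Sema3a and Sema3e stay below 0 and those for Tnfrsf11b and Efnb2 above 0, while those for Tnfsf11 run from -0.0385 to 0.134 and those for Ephb4 from -5e-04 to 0.15.

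Genes through which stromal cells are known to raise RANKL were read beside Tnfsf11. Of 14 measured, 8 had higher and 6 lower means in BA cells (median 0.07). At an unadjusted p under 0.05, 0 were higher and 1 lower (background 4.13% and 5.27%), and none passed over all genes. Rxra, the partner of the vitamin D receptor, averaged 7.23 ± 0.27 in control and 6.78 ± 0.06 in BA cells (SD, n = 5 each), a difference of -0.45 ± 0.13 (SE, limma adjusted p = 0.44). The glucocorticoid receptor gene Nr3c1 differed by -0.59 ± 0.28 and the vitamin D receptor gene Vdr by -0.34 ± 0.22 (SE). Of 22 other secreted regulators of osteoclast formation, 12 had higher and 10 lower means in BA cells (median 0.07), 5 were higher and 2 lower at an unadjusted p under 0.05 (background 4.13% and 5.27%), and none passed over all genes. Il1a, which stimulates RANKL production, lay between 4.06 and 4.49 in control and at 4.26, 6.71, 6.23, 5.69 and 8.35 in BA replicates 1 to 5, a difference of 2.06 ± 0.59 (SE, limma adjusted p = 0.452). BA replicate 1 lay within the control range, and the highest value was on BA replicate 5, the array with high haematopoietic markers, without which the difference was 1.53 ± 0.42 (SE). The others higher by that rule, named after their values were seen, were Il1b (1.24 ± 0.48), Lif (1.37 ± 0.53), Il18 (0.64 ± 0.26) and Il6 (1.80 ± 0.77, SE). The groups overlapped for each of them, and Il6 lay between 4.40 and 8.91 in control and between 6.70 and 8.97 in BA cells. Without BA replicate 5 the differences were 0.80 for Il1b, 1.11 for Lif, 0.435 for Il18 and 1.66 for Il6. Cxcl12 and Slit3 had lower means, by -1.60 ± 0.59 and -0.59 ± 0.22 (SE).

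Genes of osteoclasts themselves were read beside their regulators. Of 15 osteoclast effector genes, 5 had higher and 10 lower means in BA cells (median -0.09). None passed over all genes, and at an unadjusted p under 0.05 there was 1 higher and 0 lower (background 4.13% and 5.27%). That gene was Nfatc1, the transcription factor that RANKL induces in osteoclast precursors, at 8.31 ± 0.29 in control and 8.84 ± 0.35 in BA cells (SD, n = 5 each), a difference of 0.53 ± 0.19 (SE, limma adjusted p = 0.484). Osteoclast-restricted genes had overlapping ranges: Calcr lay between 5.48 and 5.76 in control and between 5.43 and 5.61 in BA cells, and the acid phosphatase gene Acp5 between 5.88 and 6.29 and between 5.84 and 6.78. Car2 (carbonic anhydrase 2) differed by -1.27 ± 0.65 and Dcstamp by -0.17 ± 0.10 (SE). Osteocytes are a known source of RANKL. Of 7 osteocyte markers, 3 had lower levels in BA cells at an unadjusted p under 0.05, where 5.27% of all genes did. These were Phex (-1.12 ± 0.44), Dmp1 (-0.42 ± 0.17) and Fgf23 (-0.25 ± 0.11, SE), and none passed over all genes. The largest difference of the 7 was in the other direction, 1.31 ± 0.63 (SE) for Pdpn, and did not pass (limma adjusted p = 0.534). Tnfsf11 differed by 0.04.

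The genes whose pattern over the 10 arrays was most like that of each member were taken from 9380 genes, by Pearson's r as a description. These were the genes with a mean above the median of all genes, less the members, predicted genes, olfactory and vomeronasal receptors and small RNA genes. Being the highest of 9380 values over 10 arrays, each r is high by the way it was chosen. The choice also favours genes whose group difference goes the way of the member's. Csf1 was most like Gsta4 and Gas6 (r = 0.95 for both), and Gas6, the gene of a ligand for TAM receptors, averaged 9.21 in control and 8.18 in BA cells. Il34 was most like Gstt1 (0.98) and Slc6a20a (0.96). For Sema3e these genes were the collagen-binding integrin gene Itga11 and the tropomyosin gene Tpm2 (r = 0.91 for both). After each group's mean was taken out, r was 0.86 and 0.87. Itga11 and Tpm2 differed by -1.20 ± 0.39 and -1.22 ± 0.32 (SE), and neither passed over all genes. For Sema3a they were Ptn (0.96), which encodes the growth factor pleiotrophin, and Prss8 (0.93). For Tnfsf11 they were Slc2a4rg-ps (0.93) and Slc22a13 (0.92), and for Tnfrsf11b Ccdc47 (0.94) and Pdcd7 (0.92). For Efnb2 they were Phf3 and Sf3a3 (0.92 for both), and for Ephb4 Abhd16a and Slc25a12 (0.88 for both). Among the members, Csf1 and Il34 were the most alike of 28 pairs, at r = 0.81 over the 10 arrays and 0.74 after each group's mean was taken out. Tnfsf11 and Tnfrsf11b stood at -0.48 and -0.51.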

How the data were processed

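The authors deposited log2 expression values for 35557 probe sets on 10 arrays, to 2 decimals and with 0 missing. The submitters' processing notes name GCRMA, a background correction from probe sequence followed by normalization and a summary per probe set. Neither its version nor a genome build is given in the sources used here. That the log base is 2 was taken from GCRMA and from the span of the values, 1.21 to 13.7. Genes were named from the platform annotation: 21789 probe sets had 1 symbol, 1621 several and 12147 none. Each of 19938 genes was represented by its probe set with the highest mean. The main test was limma (version 3.58.1, R 4.3.3; lmFit and eBayes, two-sided) with Benjamini-Hochberg adjustment over the 19938 genes and a threshold of 0.05. Each group holds 5 single mice. Arrays were checked for identical values, and the fit was tested on simulated data. Genes named were drawn from the 8 members, all receptors, up to 3 genes with the smallest p of each of 14 lists, and the 2 genes most like each member. Outside that rule, Xist, Ptprc, Pecam1, Calcr, Acp5, Pdpn, Alpl, Sp7, Ibsp, Sparc, Il1b, Lif, Il18 and Il6 were named after their values were seen. The members and lists were chosen with earlier results of these data known. Alternatives covered normalization, filtering, weights, blocks, other tests and leaving out arrays. The main test did not treat arrays of the same replicate number as pairs. Of 5 same-numbered pairs, 1 had deviations that correlated over 0.1, which cannot settle whether the arrays were paired.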

Additional observations from a re-analysis of the deposited data

Results flagged for a closer look

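In the RANKL to osteoprotegerin balance, taken as Tnfsf11 minus Tnfrsf11b on the log2 scale, BA replicate 1 lay far from the rest of its group. It was at 0.24, the nearest BA array at -1.09 and the farthest at -1.63. Of 18 sets of 5 arrays looked at in this way (the 8 genes and this balance in each group), it was the only one with an array this far from its neighbours, and chance flags about 1 in 20. The gap was only just past the limit, with a gap to range ratio of 0.711.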

How the results depend on the processing

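No member passed the adjusted threshold under any of the alternatives run. Directions held in all of them for Tnfrsf11b, Csf1, Il34, Sema3a, Sema3e and Efnb2. Tnfsf11 turned to -0.062 with quantile normalization and ran from -0.0385 to 0.134 with 1 array left out, and Ephb4 from -5e-04 to 0.15. The number of members lower at an unadjusted p under 0.05 was 1; it was 3 with the replicate block (Csf1, Il34 and Sema3e, adjusted p 0.588, 0.586 and 0.516), and 0 with arrays centred on their median, with the Xist class as a block, with the plain equal-variance test and without BA replicates 4 and 5 together, a setting chosen after seeing the data. With 1 array left out it was 0 to 3, and the members whose groups did not overlap numbered 0 or 1. The genes past the adjusted threshold and higher in BA cells numbered 1; they were 0 with the replicate block, among genes above the median level and with the plain test, 2 with the Xist block, 11 without BA replicates 4 and 5, and 0 to 12 with 1 array left out, where those lower were 0 or 1. The genes lower at an unadjusted p under 0.05 (1051) were 369 among genes above the median level, 436 without BA replicates 4 and 5, and 676 to 1512 with 1 array left out. Those whose groups did not overlap (333) were 182, 835 and 443 to 916. The setting above the median level holds fewer genes, and with fewer arrays it is easier for groups not to overlap. These counts are therefore not comparable with those from all genes and all arrays. Whether the replicate numbers of the titles mark pairs is unknown: 2 of 5 control arrays correlated best with the BA array of their own number. Other causes of these changes were not tested. Without detection calls, how far each member stood over background is unknown.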
